A study of Mus musculus with 9 samples.

Results

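The genes described here release calcium from internal stores or remove it from the cytosol: the ryanodine receptors Ryr2 and Ryr3, the IP3 receptor Itpr1, the IP3 kinase Itpka, the plasma membrane calcium pumps Atp2b1 and Atp2b2, and the endoplasmic reticulum calcium pump Atp2a2. These 7 genes were chosen by symbol from the 31051 gene columns of the deposited table, with no use of their values. Nuclear RNA was measured in 9 libraries from mouse hippocampal pyramidal cells, all of genotype WT, with no strain, age, sex or treatment given. During navigation, imaging in the living animal sorted the cells into place cells, active at certain positions of an environment, and silent cells, and tagged cells were recovered as nuclei. There were 5 place libraries and 4 silent libraries. Each sample title names a mouse by a different designation, and the number of nuclei per library is not stated. The labels do not say outright that each library is a separate animal, so p-values measure the spread between these libraries, whatever its source.

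Calcium stored in the endoplasmic reticulum leaves through ryanodine receptors, which are opened by calcium itself, and through IP3 receptors, which are opened by inositol trisphosphate (IP3) made by phospholipase C. Itpka phosphorylates IP3 and so ends its action at that receptor, and in hippocampal neurons its protein binds actin in dendritic spines. Pumps of the SERCA type, such as the product of Atp2a2, return calcium to the store, and pumps of the PMCA type, made from the Atp2b genes, expel it from the cell.

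In the GENCODE M21 annotation of GRCm38, an older build than the GRCm39 of the deposited values and used here for gene sizes only, Ryr2 (ENSMUSG00000021313.16) spans 553.8 kb of chromosome 13 and Ryr3 (ENSMUSG00000057378.15) spans 585.7 kb of chromosome 2. Itpr1 (ENSMUSG00000030102.11) spans 338.0 kb and Atp2b2 (ENSMUSG00000030302.16) 298.8 kb, both on chromosome 6. Atp2b1 (ENSMUSG00000019943.10) covers 111.7 kb of chromosome 10, Atp2a2 (ENSMUSG00000029467.15) 48.7 kb of chromosome 5, and Itpka (ENSMUSG00000027296.7) 8.9 kb of chromosome 2. Annotated exons sum to between 1.818 kb (Itpka) and 28.790 kb (Ryr2).

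Levels are given in reads per 1000000 of the library total (RPM), from whole reads recovered from the deposited values, so that every library has a common total. Recovered depth ran from 13955276 reads in silent replicate 1 to 22287189 in silent replicate 4. Genes detected, those with any reads, numbered 16612 to 20989 in place libraries and 14175 to 17898 in silent ones, fewest in silent replicate 1. Pyramidal cell markers were present throughout. Camk2a, a kinase subunit of excitatory synapses, ranged from 805 to 1432 RPM, and Slc17a7, the vesicular glutamate transporter, from 316 to 618 RPM. Place replicate 3 stood apart, with the lowest Neurod6 (90.2 RPM, 257 or more in the other 8) and Wfs1 (29.95 RPM, 103 or more in the other 8), both pyramidal cell markers. Its sums of the 5 excitatory pyramidal markers (2744 RPM) and the 5 CA1 markers (431 RPM) were also the lowest. Its Camk2a, Gria1, Fibcd1, Mpped1 and Pou3f1 were not the lowest, and its Dcn (113 RPM), also a CA1 marker, was the highest. The summed level in place replicate 3 was the highest for the 9 oligodendrocyte markers (2947 RPM, 117 to 1919 elsewhere). So were the sums of the 5 astrocyte markers (1769 RPM, 48.8 to 385 elsewhere) and the 5 dentate granule cell markers (663 RPM, 218 to 472 elsewhere). Gja1 (1163 RPM) and Slc1a3 (565 RPM) made up most of the astrocyte sum. The astrocyte marker Gfap (16.8 RPM) and the granule cell marker Calb1 (131 RPM) were not highest there. Nor were the sums of the 5 microglia markers (16.6 RPM) and the 3 oligodendrocyte precursor markers (12.7 RPM). Oligodendrocyte markers were also high in place replicates 1 (1315 RPM) and 2 (1919 RPM), above all silent libraries (117 to 509 RPM), whereas place replicates 4 (284 RPM) and 5 (187 RPM) lay within the silent range. Silent replicate 3 was highest for the 7 interneuron markers (534 RPM, 24.9 to 198 elsewhere), of which Vip, a neuropeptide, gave 424 RPM, while its Gad1 (42.8 RPM) and Gad2 (65.8 RPM) were not the highest and Sst and Lhx6 had no reads. The 4 Y-linked genes summed to 743 to 1297 RPM in the 4 silent libraries and place replicate 1, and to at most 0.258 RPM in the other 4 place libraries. None of these markers was at 0 in all 9 libraries.

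In bulk RNA, fewer cells of a type and less RNA per cell cannot be told apart. The pump Atp2b1 was the most abundant of the 7 genes by a wide margin, and per length of transcript the 3 channel genes and Atp2b2 lay below the other 3 genes. Atp2b1 took 0.488% of all reads on average and ranked 5 among all genes by mean reads, between 4 and 8 in single libraries. Per kilobase of annotated exon it averaged 321 ± 45.9 RPM per kb (SD, n = 9), rank 16 among the 13258 tested genes with an annotated length. Itpka followed with 152 ± 49.2, at rank 89, and Atp2a2 with 113 ± 18.9, at rank 167. The other 4 lay close together, Itpr1 at 27.8 ± 6.60, Atp2b2 at 22.8 ± 6.77, Ryr2 at 22.3 ± 1.83 and Ryr3 at 18.4 ± 6.09 RPM per kb.

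**Figure D1:**
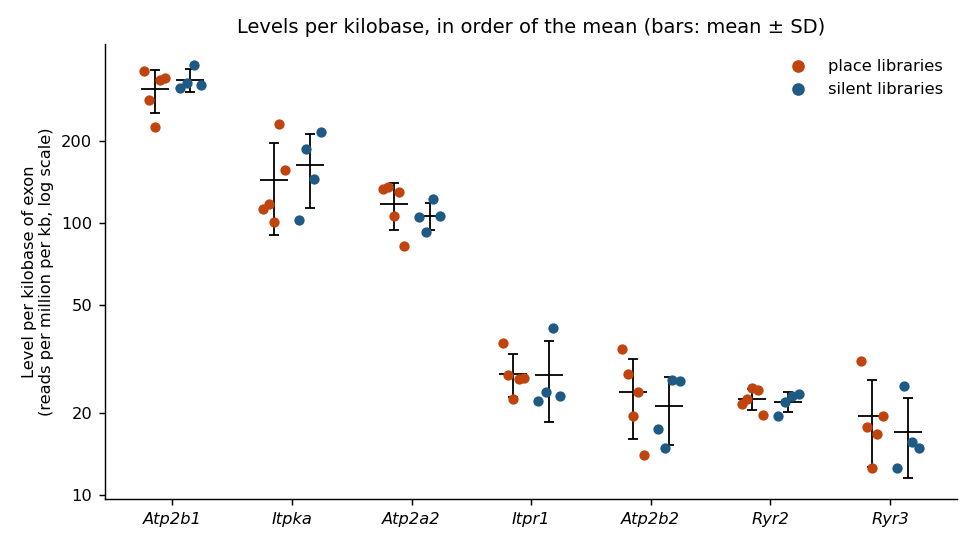
Level of each gene per kilobase of exon (RPM per kb, log axis) in the 9 libraries, genes in order of their mean; each point is a library and the bars are mean ± SD of the 5 place and 4 silent libraries. Atp2b1, Itpka and Atp2a2 lie above Itpr1, Atp2b2, Ryr2 and Ryr3 in every library.

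Of the 6 neighbouring pairs in this order, 2 differed beyond the spread between libraries. Atp2b1 was higher than Itpka in 9 of 9 libraries, by 2.18-fold on average (range 1.45 to 3.21, two-sided exact permutation test by sign flips, p = 0.0039, and 0.0117 after adjustment over 6 pairs). Atp2a2 was higher than Itpr1 in 9 of 9, by 4.09-fold (range 2.96 to 4.93, exact permutation p = 0.0039, adjusted p = 0.0117). Itpka exceeded Atp2a2 in 5 of 9 libraries (exact permutation adjusted p = 0.117), and Itpr1 exceeded Atp2b2 in 7 of 9 (exact permutation adjusted p = 0.0625). Atp2b2 was above Ryr2 in 4 of 9 (exact permutation adjusted p = 0.816) and Ryr2 above Ryr3 in 7 of 9 (exact permutation adjusted p = 0.111), so these neighbours were not separated. The smallest p that 9 libraries allow is 0.0039. Such ratios lie within a library and do not depend on scaling, but they do depend on length. With the longest annotated transcript as the length, 4 of the 6 pairs passed. Whether the authors counted reads in introns is not given in the sources used here, and the levels per kilobase assume that they did not.

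Ryr2, the release channel also found in heart muscle, was the steadiest member. It stood at 623, 648, 709, 701 and 569 RPM in place replicates 1 to 5 and at 562, 633, 668 and 679 RPM in silent replicates 1 to 4. The highest library exceeded the lowest by 1.26-fold, and the groups overlapped almost fully. Place libraries averaged 649.9 ± 58.0 RPM (SD, n = 5) and silent libraries 635 ± 52.5 (SD, n = 4), a log2 fold of 0.032 (95% interval -0.36 to 0.42, limma adjusted p = 0.991).

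Ryr3, the ryanodine receptor that is broadly expressed at lower levels, varied more. Its levels were 588, 336, 239, 319 and 372 RPM in place replicates 1 to 5 and 238, 478, 298 and 284 RPM in silent replicates 1 to 4. One library in each group was high, place replicate 1 and silent replicate 2, and of the remaining place values 3 lay above and 1 lay within the range of the remaining silent values. The means were 371 ± 131 RPM (SD, n = 5) and 324 ± 106 (SD, n = 4), with a log2 fold of 0.18 (95% interval -0.41 to 0.76, limma adjusted p = 0.958). Without place replicate 1 the log2 fold was -0.0044. Exons of Aven, transcribed in the other direction, cover 4.83% of the annotated Ryr3 exon bases. Since the sources used here do not say whether counting used strand, a part of these reads is uncertain.

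Itpr1, the main neuronal IP3 receptor, was even in all but 2 libraries. It was measured at 662, 505, 412, 487 and 492.9 RPM in place replicates 1 to 5 and at 407, 437, 755 and 425 RPM in silent replicates 1 to 4. Silent replicate 3 stood far above the other silent libraries, and it is also the library with the 424 RPM of Vip, whose part in this value was not tested. In that library Gad1 (42.8 RPM) was below silent replicates 2 (60.3 RPM) and 4 (51.4 RPM) and the 179 RPM of place replicate 3. Its Gad2 (65.8 RPM) was above the other silent libraries (20.2 to 36.5 RPM) but below the 98.7 RPM of place replicate 5. Its Slc32a1, although low (0.867 RPM), was the highest of all libraries, and its Sst and Lhx6 had no reads. Place replicate 1, the next highest for Itpr1, had no reads of Vip and an interneuron sum of 52.4 RPM. Group means of Itpr1 were 512 ± 91.8 RPM (SD, n = 5) and 506 ± 167 (SD, n = 4), a log2 fold of 0.050 (95% interval -0.44 to 0.54, limma adjusted p = 0.990). Without silent replicate 3 the log2 fold was 0.26, and without place replicate 1 it was -0.047. Predicted genes on the other strand cover 0.99% and 0.59% of its annotated exon bases.

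Itpka had the widest spread of the members on the log2 scale (SD 0.46, n = 9). Place replicates 1 to 5 held 205, 213, 184, 419 and 283 RPM and silent replicates 1 to 4 held 186, 340.1, 264 and 393 RPM. The highest and the lowest library were both place libraries, replicates 4 and 3, and the silent values lay between them. With means of 261 ± 96.1 RPM (SD, n = 5) and 296 ± 90.2 (SD, n = 4), the log2 fold was -0.19 (95% interval -0.81 to 0.42, limma adjusted p = 0.954). Its single annotated transcript is 1.818 kb long, the shortest among the 7 genes.

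Atp2a2, which encodes the housekeeping SERCA pump that refills the store, reached 811, 827, 647, 791 and 499.7 RPM in place replicates 1 to 5. In silent replicates 1 to 4 it reached 637, 562, 743 and 647 RPM. The 3 highest libraries were place libraries, and so was the lowest, place replicate 5. The group means were 715 ± 140.1 RPM (SD, n = 5) and 647 ± 73.9 (SD, n = 4), with a log2 fold of 0.13 (95% interval -0.31 to 0.56, limma adjusted p = 0.961).

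Atp2b1, the broadly expressed plasma membrane pump, stood at 5515, 4305, 3418, 5099 and 5200.2 RPM in place replicates 1 to 5. Silent replicates 1 to 4 stood at 4756, 4954, 5808 and 4884 RPM. The lowest value was that of place replicate 3, the library with the lowest pyramidal sum and the highest oligodendrocyte and astrocyte sums. The part of these markers in that value was not tested. The highest value was that of silent replicate 3. Means of 4707 ± 847 RPM (SD, n = 5) and 5101 ± 478 (SD, n = 4) gave a log2 fold of -0.13 (95% interval -0.50 to 0.24, limma adjusted p = 0.942). The interval puts the place level between 0.706 and 1.18 times the silent level, the narrowest of the 7 on the log2 scale. Its width also draws on the variance of other genes, as limma moderates it. The SD of log2 levels was 0.22 in Atp2b1 and 0.12 in Ryr2. Without the filter on low values, the Ryr2 interval (-0.22 to 0.28) was narrower than that of Atp2b1 (-0.59 to 0.32).

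Atp2b2, a plasma membrane pump enriched in neurons and hair cells, was at 434, 352, 245, 301 and 177 RPM in place replicates 1 to 5. It was at 220.2, 188, 334 and 331 RPM in silent replicates 1 to 4. The place libraries again held both the highest and the lowest value. Mean levels were 302 ± 98.6 RPM (SD, n = 5) and 268 ± 75.4 (SD, n = 4), a log2 fold of 0.15 (95% interval -0.46 to 0.76, limma adjusted p = 0.968). Without silent replicate 2 the log2 fold was -0.0081.

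**Figure D2:**
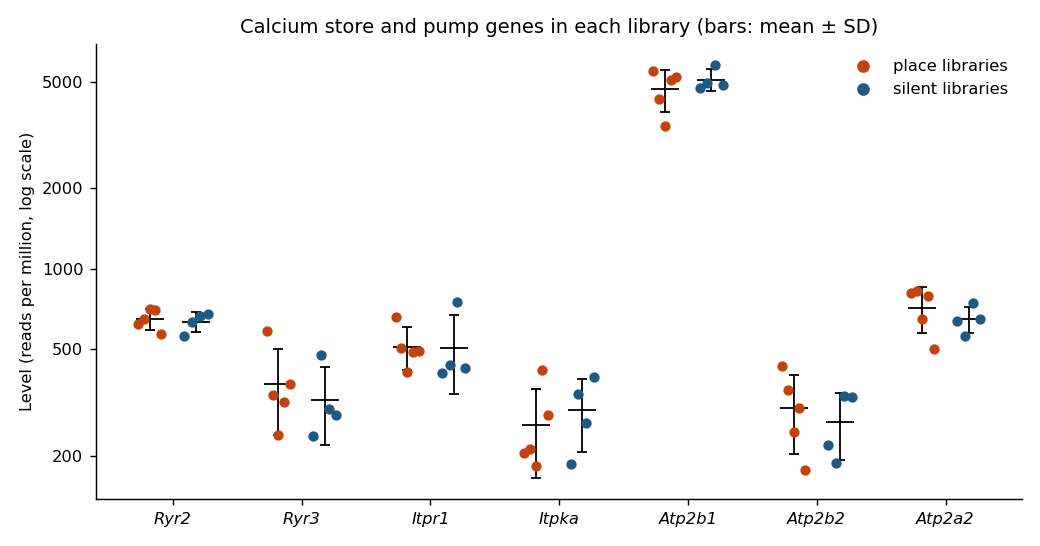
Level of each of the 7 genes (RPM, log axis) in every library, place in red-brown and silent in blue, with mean ± SD of each group (n = 5 and n = 4). The groups overlap for all 7 genes, and Atp2b1, at 3418 to 5808 RPM, lies above every other gene in every library.

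Setting place against silent libraries compares the transcripts of calcium handling in cells that were spatially active and cells that were not. Y-linked reads largely went with this split. They summed to 743 to 1297 RPM in the silent libraries and place replicate 1, and to at most 0.258 RPM in the other place libraries. Activity and sex can therefore not be told apart here, except through place replicate 1. With limma, 0 of the 7 genes passed an adjusted p of 0.05, and none had an unadjusted p under 0.05. Over all 13862 genes tested, 0% passed, 5.35% (741 genes) had an unadjusted p under 0.05 (3.99% higher and 1.36% lower in place), and voom on the recovered reads also called 0. The groups did not overlap in 1.82% of all genes tested and in 0 of the 7 genes. Log2 folds were positive in 5 of the 7 genes and negative in 2, against 56.6% positive over all genes. The median log2 fold was 0.050 over the 7 genes and 0.11 over all genes tested. Over the 2481 tested genes that averaged at least 100 RPM, as all 7 genes did, 1167 were positive and 1314 negative. Their median log2 fold was -0.027, and by limma 46 were higher and 66 lower in place at an unadjusted p under 0.05. Exact permutation tests over the libraries gave p from 0.476 (Atp2b1) to 0.762 (Itpr1), two-sided, where the smallest possible p is 0.0079. The intervals reached up to 1.697 times the silent level in Ryr3 and 1.69 times in Atp2b2, and down to 0.569 times in Itpka.

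**Figure D3:**
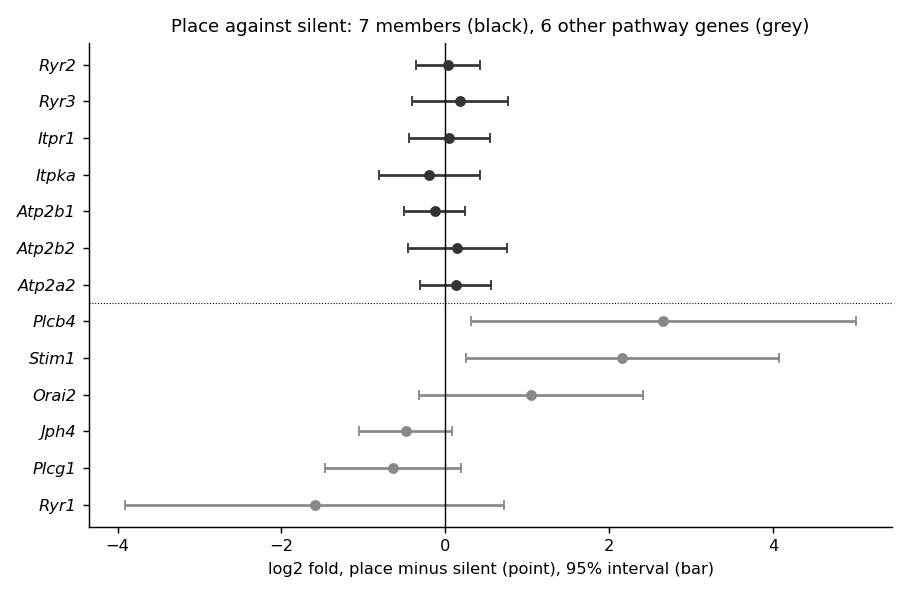
Log2 fold of place minus silent libraries (points) with 95% limma intervals (bars), for the 7 genes in black and, in grey, for 6 other calcium pathway genes, those nearest the threshold on either side. The intervals of the 7 genes all include 0. Those of Plcb4 and Stim1 do not in this fit, but they do when certain single libraries are left out.

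Spread across libraries differed among the 7 genes. The SD of log2 levels was 0.12 in Ryr2, 0.22 in Atp2b1, 0.25 in Atp2a2 and 0.31 in Itpr1, and it was 0.43 in Ryr3, 0.44 in Atp2b2 and 0.46 in Itpka. The median SD was 1.13 over all genes tested and 0.47 over the 2481 of them that averaged at least 100 RPM, a level that all 7 genes exceed, so Ryr3, Atp2b2 and Itpka lay close to that median. The comparison was not matched further on level and was not tested.

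Levels of the pump genes Atp2b2 and Atp2a2 went together from library to library. Pearson's r of their log2 levels over the 9 libraries was 0.89 (exact permutation p = 0.0018, adjusted p = 0.0369 over the 21 pairs of members) and Spearman's rho 0.93 (exact permutation p = 0.00075, adjusted p = 0.0157). Both were lowest in place replicate 5 and next lowest in silent replicate 2, and place replicates 1 and 2 were the highest for each. Without place replicate 5 and silent replicate 2, the libraries farthest from the median of Atp2b2, r was 0.74. The pairing of a plasma membrane pump with a store pump was not shared by the more abundant Atp2b1, whose r with Atp2a2 was 0.071 (exact permutation p = 0.859, rho = 0.05, exact permutation p = 0.912), and the difference between these correlations was not tested. Of the other 20 pairs none passed, the next being Itpr1 and Atp2b1 (r = 0.65, exact permutation p = 0.0610, adjusted p = 0.635, rho = 0.72, exact permutation p = 0.0369, adjusted p = 0.387), where r was 0.36 without place replicate 1 and silent replicate 3. Ryr2 and Ryr3 did not follow each other (r = -0.21, exact permutation p = 0.603, rho = -0.30, exact permutation p = 0.437), though r was -0.89 without place replicate 5 and silent replicate 1, the libraries farthest from the median of Ryr2.

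**Figure D4:**
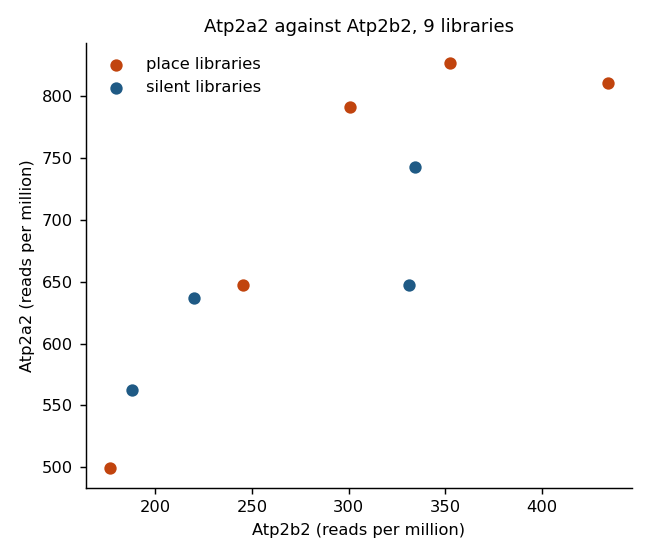
Atp2a2 against Atp2b2, both in RPM on linear axes; each point is a library, place in red-brown and silent in blue. Place replicate 5 lies lowest on both axes (177 and 499.7 RPM), and libraries of both groups lie along the same rising band.

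Within each family, a single gene carried most of the level per kilobase, except among the ryanodine receptors. Itpr1 made up 85.8 to 97.5% of the IP3 receptor level, with Itpr2 at 15.4 to 51.6 RPM and Itpr3, without reads in 6 libraries, at no more than 8.72 RPM. Itpka made up at least 95.2% of the IP3 3-kinase level, with Itpkb at 0 to 52.9 RPM and Itpkc at no more than 0.128 RPM. Atp2b1 made up 87.3 to 93.0% of the plasma membrane pump level and Atp2b2 3.82 to 8.62%, followed by Atp2b3 (25.9 to 65.7 RPM) and Atp2b4 (2.29 to 41.5 RPM). Atp2a2 made up at least 99.9% of the SERCA level in every library. Atp2a1 and Atp2a3, the SERCA genes known from muscle and from blood and other non-muscle cells, each had reads in 1 library only, and 0 reads allow up to 0.135 to 0.215 RPM depending on the library's depth, for counting error only.

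The ryanodine receptors were split between Ryr2 and Ryr3. Ryr2 held 53.7 ± 7.72% of the family level per kilobase (SD, n = 9) and Ryr3 42.9 ± 8.55%. The Ryr2 share was lowest in place replicate 1 at 41.0% and highest in place replicate 3 at 66.2%, and its mean was 53.5 ± 9.41% over place libraries (SD, n = 5) and 53.9 ± 6.39% over silent ones (SD, n = 4). Ryr3 exceeded Ryr2 in place replicate 1 (58.6%) and silent replicate 2 (52.1%). With the longest transcript as the length, the Ryr2 share ran from 49.2 to 73.2%. Ryr1, the receptor of skeletal muscle, ranged from 0.103 RPM in place replicate 3 to 113 RPM in silent replicate 1, where it held 13.9% of the family level.

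**Figure D5:**
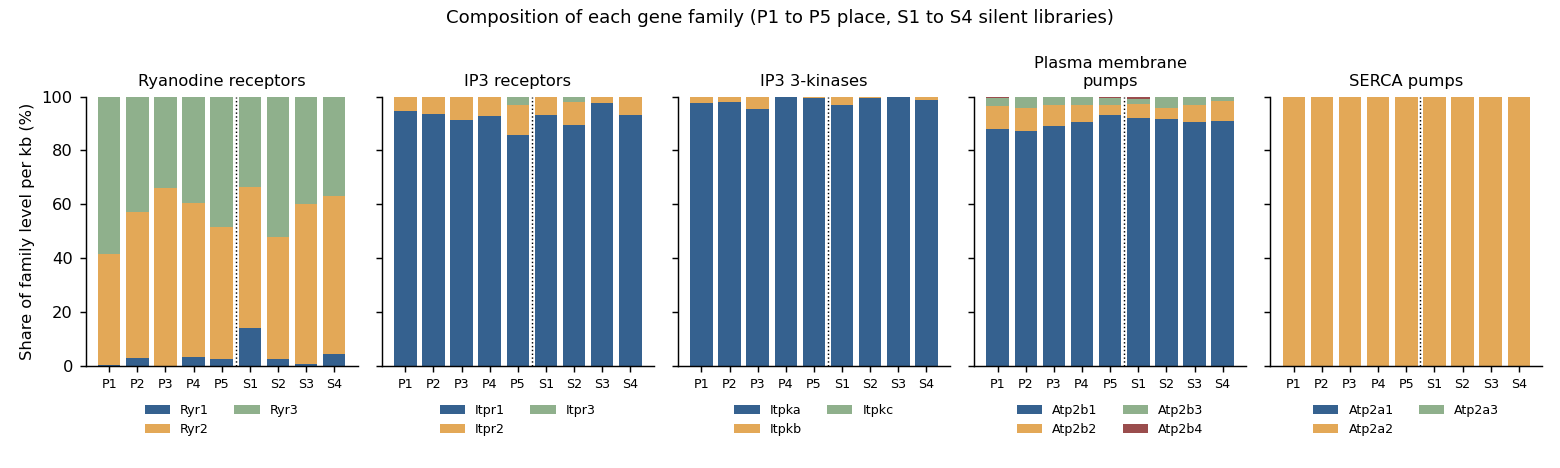
Share of each family's summed level per kilobase (%) taken by each gene, one bar per library, P1 to P5 for place and S1 to S4 for silent replicates. A single gene fills most of each bar except among the ryanodine receptors, where Ryr2 takes 41.0 to 66.2%.

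A further 58 genes of calcium release, entry and extrusion were looked at beside the 7, and 45 of them were abundant enough to test. With limma 0 of 45 passed over all genes, 23 had positive and 22 negative log2 folds, and the median was 0.023. An unadjusted p under 0.05 was reached by 2 of 45, both higher in place, against 3.99% of all genes tested in that direction. Stim1, the sensor of store calcium that opens Orai channels, was at 43.6, 91.4, 120, 51.7 and 48.5 RPM in place replicates 1 to 5 and at 0, 42.5, 33.2 and 32.1 RPM in silent replicates 1 to 4. It was the only one of the 45 whose groups did not overlap, a share near the 1.82% of all genes tested, and place replicate 1 and silent replicate 2 were nearly equal. Its log2 fold was 2.16 (95% interval 0.25 to 4.07, limma adjusted p = 0.905, exact permutation p = 0.0159). The log2 fold was 0.86 (95% interval -0.15 to 1.87) without silent replicate 1, the library with no reads, and 0.57 without place replicate 3 and silent replicates 1 and 4. With genes detected as a covariate it was 0.96 (95% interval -1.34 to 3.27). The interval also included 0 without place replicate 2 or place replicate 3, and with a pseudocount of 0.1, no filter, voom or the values as deposited. With the Y-linked sum as a covariate, the log2 fold of Stim1 was 1.77 (95% interval -1.56 to 5.09). Plcb4, a phospholipase C that makes IP3 downstream of Gq-coupled receptors, averaged 32.3 ± 29.3 RPM over place libraries (SD, n = 5) against 7.54 ± 10.5 over silent ones (SD, n = 4) (log2 fold 2.66, 95% interval 0.31 to 5.01, limma adjusted p = 0.905). Place replicate 3 held the highest Plcb4 level, 82.6 RPM, and silent replicate 2 had no reads. Its log2 fold was 1.98 without silent replicate 2 (95% interval -0.37 to 4.33) and 3.50 without silent replicate 3. The interval also included 0 without place replicate 3, place replicate 5 or silent replicate 4, and the groups overlapped (exact permutation p = 0.0794). With the Y-linked sum as a covariate, the log2 fold of Plcb4 was 1.61 (95% interval -2.30 to 5.52). Without place replicate 3 and silent replicates 1 and 4 it was 1.99 (95% interval -0.68 to 4.66). Stim1 was highest in place replicates 3 and 2 and Plcb4 in place replicate 3, libraries with high oligodendrocyte markers. Place replicate 1, also high in these markers, had the lowest Stim1 of the place libraries (43.6 RPM) and 13.2 RPM of Plcb4. The part of these markers in the values was not tested.

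The other pathway genes nearest to the threshold had intervals that included 0 in the main fit. That of Plcg1 lay below 0 with genes detected (-2.14 to -0.15) or the Y-linked sum (-2.97 to -0.70) as a covariate. That of Jph4 lay below 0 without place replicate 3 (-1.18 to -0.07) and with the Y-linked sum as a covariate (-1.94 to -0.20). Orai2, a store-operated channel subunit, averaged 56.1 ± 20.1 RPM over place libraries (SD, n = 5) against 34.3 ± 24.7 over silent ones (SD, n = 4), with overlapping groups. Jph4, a junctophilin that ties the endoplasmic reticulum to the plasma membrane in neurons, averaged 254 ± 84.7 and 339.7 ± 27.7 RPM (log2 fold -0.49, 95% interval -1.05 to 0.08, limma adjusted p = 0.905). Plcg1, a phospholipase C activated by receptor tyrosine kinases, averaged 81.9 ± 31.2 and 119 ± 23.1 RPM, and Ryr1 16.8 ± 13.6 and 46.6 ± 46.3 RPM. Among exchangers, here chosen after their values were seen, Slc24a2 at 813 ± 127 RPM (SD, n = 9) and Slc8a1 at 667 ± 229 RPM (SD, n = 9) were the most abundant pathway genes outside the 7 by reads, uncorrected for length.

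The gene most like each member over the 9 libraries was named by the highest Pearson r of log2 levels among 9387 candidate genes that averaged at least 10 RPM. With so many candidates and 9 libraries, high values arise readily, and they are given as a description. Ttll11, a tubulin polyglutamylase gene, was nearest to both Atp2b2 (r = 0.97) and Atp2a2 (r = 0.91), from 5.56 RPM in place replicate 5 to 49.8 RPM in place replicate 1. Tesc, which encodes the calcium-binding protein tescalcin, was nearest to Atp2b1 (r = 0.97), from 14.7 RPM in place replicate 3 to 90.7 RPM in silent replicate 3. The nearest to Ryr2 was Tsr3, a ribosome maturation enzyme (r = 0.95). Ift122, an intraflagellar transport component, was nearest to Ryr3 (r = 0.94), Trim28, a transcriptional corepressor, to Itpka (r = 0.94), and Rsl24d1, a ribosome assembly factor, to Itpr1 (r = 0.91).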

How the data were processed

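Per the labels' protocols, nuclear RNA was taken from isolated nuclei and turned into libraries by SMART-Seq mRNA LP. Per the submitters' processing notes, STAR, HTSeq and GRCm39 were used, with no version or role. The authors deposited a normalized signal per gene, with libraries in rows, whose scaling is not stated. In 8862 of 8893 genes above 0 in all 9 libraries (99.65%), values were whole multiples (within 0.05 of a read) of 1 number per gene, between 1 and 8. Dividing by it gave reads. Genes not resolved (0.105% of reads) were divided by the median, 3.335, and rarely detected genes are known only up to a common divisor. A column naming no gene (0.177 to 0.304% of the signal) was left out.

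Reads were scaled to 1000000 per library. Genes with at least 1 RPM in at least 4 libraries were tested with limma 3.58.1 (R 4.3.3, intensity trend) on log2(RPM + 1), place minus silent, with Benjamini-Hochberg adjustment and a threshold of 0.05. Read recovery and limma were tested on simulated data. Groups came from sample titles. Single values were compared by exact permutation tests. Alternatives changed the scaling, pseudocount, filter, covariates, test and libraries. Exon lengths came from GENCODE M21 (GRCm38), used for lengths only, since the build differs. Named pathway genes are those with the 3 smallest p in each direction plus the relatives of members. The correlation of Atp2b2 with Atp2a2 was singled out after its value was seen. Members, lists and alternatives were chosen with earlier results of these data known.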

Additional observations from a re-analysis of the deposited data

Results flagged for a closer look

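In 6 of 42 groups examined, 1 library lay far from the rest of its group. Chance flags about 1 in 20 groups of continuous values, but in 4 of the 6 the other libraries were at or near 0, where this rate does not apply, so no excess over chance is shown. Itpr1 was at 755.2 RPM in silent replicate 3, against 407 to 437 RPM in the other silent libraries. Itpr2 was at 51.65 RPM in place replicate 5, against 28.3 to 32.2 RPM in the other place libraries. Itpr3 was at 8.715 RPM in the same library, against at most 0.321 RPM in the other place libraries, and at 4.96 RPM in silent replicate 2, with no reads in the other silent libraries. Atp2a1 had reads only in place replicate 4, at 0.1376 RPM, and Atp2a3 only in place replicate 3, at 0.3098 RPM, values known only up to a common divisor.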

How the results depend on the processing

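Over 18 alternatives, 0 of the 7 genes and 0 of the 45 pathway genes were called, and the smallest adjusted p of a member was 0.622 (limma or voom). The log2 folds of Itpka and Atp2a2 kept their direction under all 18, and 13 values of the other members changed sign. With genes detected as a covariate, the log2 fold of Ryr2 was -0.014. With the Y-linked sum as a covariate it was -0.017 for Ryr2 and 0.097 for Atp2b1, with 0.92 for Ryr3 and 0.70 for Atp2b2, and 35 genes were called over the whole table, 0 of them higher in place. Among place libraries only replicate 1 summed to more than 0.258 RPM of Y-linked reads, as all silent libraries did, so these values rest in effect on that 1 library against the silent group. Without silent replicates 1 and 4 and place replicate 3, it was -0.038 for Ryr2, -0.11 for Itpr1, -0.12 for Orai2 and 0.32 for Ryr1. Leaving out 1 library at a time gave log2 folds of -0.026 to 0.078 for Ryr2, -0.0044 to 0.38 for Ryr3, -0.047 to 0.26 for Itpr1 and -0.0081 to 0.32 for Atp2b2. It gave 0 to 2 genes called over the whole table, 2 of them without place replicate 1 (Ddx3y and Eif2s3y), 2 to 3 neighbouring pairs separated per kilobase, and a log2 ratio of Atp2b2 to Ryr2 of -0.12 to 0.037. With the longest transcript as the length, 4 pairs were separated in place of 2. The median log2 fold of all genes was 0.11, and it was 0.23 with values as deposited and -0.056 with genes detected as a covariate. The r of Atp2b2 and Atp2a2 stayed between 0.85 and 0.95 over 13 alternatives chosen after seeing the data. Leaving out place replicate 5 and silent replicate 2 together, which is not among these, gave 0.74. The cause of these shifts was not tested. edgeR's quasi-likelihood test, although planned, was not run, and voom was the only count-based test applied to the recovered reads. No paired analysis was possible because the replicate numbers were given in accession order and pair no libraries. With 5 and 4 libraries, the member intervals of the main fit reach from 0.569 to 1.697 times the silent level. Some alternatives reached farther. With the Y-linked sum as a covariate, the log2 interval was 0.054 to 1.79 for Ryr3, which excludes 0, and -0.27 to 1.67 for Atp2b2.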
